A study of Mus musculus with 8 samples.

Results

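The elastic fibre and microfibril genes considered here are Eln, Fbn1, Mfap2, Mfap5, Mfap4, Fbln1, Fbln5, Efemp2, Efemp1 and Emilin1. They were chosen by gene symbol, and all 10 were found among the 53801 genes of the deposited table. The 8 RNA-seq libraries were made from sorted stroma of the small intestine of mice, 4 from YFP+ PDGFRα- cells and 4 from YFP+ PDGFRα+ cells. Both fractions were negative for CD45 and CD31, the surface markers of leukocytes and endothelial cells, and both came from LTβRflox PDGFRα/YFP mice, in which, by the allele name, the lymphotoxin β receptor gene is floxed. The labels set the groups apart by PDGFRα, a platelet-derived growth factor receptor of many intestinal fibroblasts. The labels give replicate numbers 1 to 4 in each group, but no age, no Cre driver beyond the allele names and no statement that the libraries came from separate mice. The p-values therefore measure the spread among these libraries alone, and some of that spread may be technical. Wild-type mice were not analysed here.

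Elastic fibres give stretch and recoil to vessels, lung, skin and the gut wall. Fibrillins assemble outside the cell into microfibrils, which are decorated by the microfibril-associated glycoproteins, and tropoelastin, the product of Eln, is deposited on this scaffold and crosslinked by lysyl oxidases. Fibulins and EMILIN proteins sit between the scaffold and the elastin core, and microfibrils also hold latent growth factors of the TGF beta and BMP families. Fibroblasts and smooth muscle cells are the usual producers.

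Total counts per library ran from 12.9 to 35.1 in units of 1e+06. RNA of the sort marker did not follow the labels, as Pdgfra stood at 475 to 749.9 counts per 1e+06 of TMM-scaled library size (CPM) in the libraries labelled PDGFRα- and at 497 to 656 CPM in those labelled PDGFRα+ (log2 fold change -0.13 ± 0.17 SE, edgeR adjusted p = 0.971). Each direction given below is therefore one between libraries as labelled. Libraries were rich in fibroblast RNA, as the 7 listed fibroblast markers summed to 114111 to 159982 CPM in PDGFRα- and 83132 to 108138 CPM in PDGFRα+ libraries. Of these markers Thy1 was near the floor, with means of 1.34 CPM in PDGFRα- and 2.43 CPM in PDGFRα+ libraries. It had 0 counts in PDGFRα- library 2. Summed markers of other cells were far lower, from 364 to 1836 CPM in PDGFRα- and 463 to 1564 CPM in PDGFRα+ libraries for 8 smooth muscle genes and from 77.8 to 623 and 60.7 to 168 CPM for 8 endothelial genes. The 8 pericyte genes summed to 1144 to 1810 and 981 to 1449 CPM, with Higd1b at 0 counts throughout. Rgs5, at 561 to 1467 CPM, made up most of that sum in each library. Leukocyte markers summed to 47.7 to 164 and 34.1 to 78.9 CPM, and epithelial markers to 8.02 to 48.6 and 1.74 to 30.2 CPM. The 8 markers of subepithelial fibroblasts, of which Foxl1 was at 0 throughout, summed to 114 to 149 CPM in PDGFRα- and 172 to 219.6 CPM in PDGFRα+ libraries. In such bulk samples fewer cells of a type and less RNA per cell cannot be told apart. The fibroblast and subepithelial marker sums of the fractions did not overlap, but neither stands for every marker of its list. Col1a1, Col1a2 and Col3a1 made up most of the fibroblast sum. Of its 7 genes 5 had a negative and 2 a positive log2 fold change. Pdpn averaged 183 CPM in PDGFRα- and 254 CPM in PDGFRα+ libraries. Of 7 tested subepithelial genes 6 had a positive sign and 1, Wnt5a, a negative one (means of 35.0 and 24.8 CPM). The part of the differences between these sums in the results below was not tested.

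The members spanned a wide range of levels. Together they took 0.636% to 1.06% of all counts of a PDGFRα- library and 0.707% to 1.04% of a PDGFRα+ library. By counts summed over the 8 libraries Fbn1 ranked 25, Eln 30, Fbln1 38 and Mfap4 56 among all genes of the table, and these 4 genes held between 91.1% and 93.6% of the members' counts in a PDGFRα- library and between 88.0% and 89.8% in a PDGFRα+ library. That share was lower in each PDGFRα+ library than in any PDGFRα- library, but the 4 genes were grouped after their values were seen, so no test is given. Levels of different genes were compared per kilobase of annotated exon. On that scale, in CPM per kilobase averaged over the 8 libraries, Mfap4 stood at 619, Fbln1 at 420, Eln at 305 and Fbn1 at 239. A second tier held Emilin1 at 72.5, Efemp1 at 65.2 and Mfap2 at 59.9, and the lowest 3 were Fbln5 at 24.4, Mfap5 at 16.5 and Efemp2 at 13.4. Mfap4 was above Fbln1 in 8 of 8 libraries, Fbn1 above Emilin1 in 8 and Mfap2 above Fbln5 in 8. Fbln1 was above Eln, Eln above Fbn1 and Fbln5 above Mfap5 in 7 libraries each. The order of other neighbours varied by library, since Emilin1 exceeded Efemp1 in 4, Efemp1 exceeded Mfap2 in 3 and Mfap5 exceeded Efemp2 in 5. The length is that of all annotated exons together, so genes with long exons that these cells do not use are understated.

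Eln (chromosome 5, 134702593 to 134747323 in GRCm38, minus strand), the elastin gene, showed no difference between the fractions beyond the spread of the libraries. It stood at 3099.9, 3104, 2664 and 1611 CPM in PDGFRα- libraries 1 to 4 and at 2425, 2741, 2528 and 1593 CPM in PDGFRα+ libraries 1 to 4. Library 4 was the lowest of each group, and the groups overlapped. The mean was 2619.6 ± 703 CPM (SD, n = 4) against 2322 ± 503 CPM. On the log2 scale the fold change came to -0.17 ± 0.22 (SE, edgeR adjusted p = 0.97), and its 95% interval reached from -0.65 to 0.31.

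Fbn1, which encodes fibrillin-1, the backbone of the microfibril (chromosome 2, 125300594 to 125507993), was the steadiest of the abundant members. Its level was 3436, 3244, 2909 and 2405 CPM in PDGFRα- libraries 1 to 4 and 3135, 2691, 2716 and 2636 CPM in PDGFRα+ libraries 1 to 4. The groups overlapped, with a log2 fold change of -0.10 ± 0.16 (SE, edgeR adjusted p = 0.975, 95% interval -0.44 to 0.24). An exon of the gene overlaps Gm9913 on the other strand, as exons of Eln overlap Gm30003, those of Mfap4 Mapk7 and those of Efemp2 Mus81. Without a stated strand setting for the counting, reads of such partners cannot be told apart.

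The remaining microfibril-associated genes also stayed within the spread of the libraries. Mfap2 (chromosome 4, 141010418 to 141015984) encodes MAGP-1, which binds fibrillin. It had 70.1, 71.3, 80.6 and 73.5 CPM in PDGFRα- libraries 1 to 4, a narrow range, and 71.8, 55.8, 56.5 and 100.6 CPM in PDGFRα+ libraries 1 to 4, where library 4 lay highest. Mfap5 (chromosome 6, 122505845 to 122529290) encodes the related MAGP-2. Its PDGFRα- libraries 1 to 4 had 35.2, 73.7, 76.8 and 30.3 CPM and its PDGFRα+ libraries 1 to 4 had 35.2, 104, 65.6 and 54.7 CPM, so that libraries 2 and 3 were high in both groups and library 1 low in both. For Mfap4 (chromosome 11, 61485431 to 61488900), whose product is a fibrinogen-related protein that binds elastin and fibrillin, the values were 1473, 1566, 1103 and 886 CPM in PDGFRα- and 1123, 1410, 1088 and 870.05 CPM in PDGFRα+ libraries. Library 4 was again the lowest on each side. The log2 fold changes were -0.05 ± 0.20 for Mfap2, 0.26 ± 0.38 for Mfap5 and -0.16 ± 0.20 for Mfap4 (SE, edgeR adjusted p = 0.993, 0.975 and 0.97). The 95% interval of Mfap5, from -0.58 to 1.11, is the widest of the members.

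**Figure D1:**
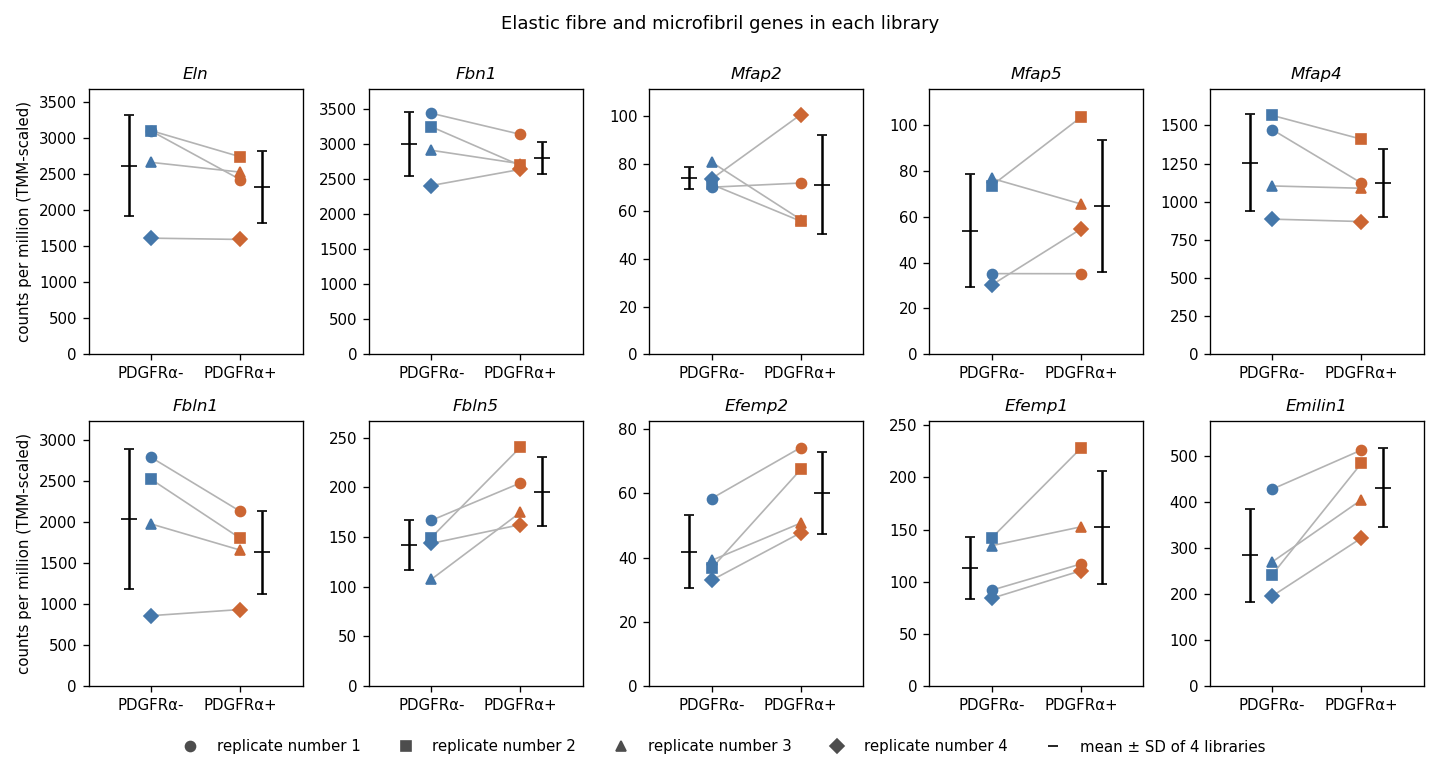
Level of each member in each library, in TMM-scaled CPM on linear axes starting at 0, for PDGFRα- (blue) and PDGFRα+ (orange) libraries. Grey lines join libraries of the same replicate number and black bars are the mean ± SD of 4 libraries. Fbln5, Efemp2, Efemp1 and Emilin1 slope upward in 4 of 4 pairs, and Eln and Mfap4 downward in 4 of 4.

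The fibulin genes had log2 fold changes of both signs, none past the threshold with group alone. Fbln1 (chromosome 15, 85205949 to 85286535) encodes fibulin-1, a component of the elastin core and of basement membranes. Its level was 2789, 2522, 1977 and 859 CPM in PDGFRα- libraries 1 to 4 and 2131, 1803, 1658 and 933 CPM in PDGFRα+ libraries 1 to 4, with library 4 far the lowest in both groups. The log2 fold change of -0.32 ± 0.36 (SE, edgeR adjusted p = 0.97) was smaller than this spread.

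Fbln5 (chromosome 12, 101746565 to 101819055) encodes fibulin-5, which brings tropoelastin to microfibrils. It stood at 167, 149.6, 107 and 144 CPM in PDGFRα- libraries 1 to 4 and 205, 241, 175 and 163 CPM in PDGFRα+ libraries 1 to 4. Only PDGFRα- library 1 and PDGFRα+ library 4 crossed. The log2 fold change was 0.46 ± 0.18 (SE), with an unadjusted p of 0.0204 and an edgeR adjusted p = 0.518. Efemp2 (chromosome 19, 5473954 to 5482517), the gene of fibulin-4, which binds lysyl oxidase and tropoelastin, had 58.4, 36.7, 39.1 and 33.0 CPM in the PDGFRα- and 74.3, 67.5, 50.8 and 47.8 CPM in the PDGFRα+ libraries. PDGFRα- library 1 alone lay within the PDGFRα+ range. For Efemp1 (chromosome 11, 28853204 to 28926743), which encodes fibulin-3, the values were 92.0, 142, 135 and 84.2 CPM in the PDGFRα- and 117, 228, 153 and 111 CPM in the PDGFRα+ libraries, with libraries 2 and 3 high in both groups. The log2 fold changes were 0.52 ± 0.22 for Efemp2 and 0.43 ± 0.24 for Efemp1 (SE, edgeR adjusted p = 0.648 and 0.848).

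The stretches upstream of the start sites of these 4 fibulin genes are shown because the genes belong to one family and have fold changes of both signs. The negative one, that of Fbln1, was smaller than its SE. They come from the RefSeq promoter table for GRCm38.p6, which held 7 of the 10 members. Each runs 5′ to 3′ on the gene's own strand and holds the bases before the RefSeq start site nearest to the annotated gene start, less any base inside an annotated exon. Fbln1 is chr15:85205699-85205948 (plus strand), Fbln5 chr12:101819120-101819369 (minus strand), Efemp2 chr19:5473696-5473945 (plus strand) and Efemp1 chr11:28852955-28853203 (plus strand). Capitals mark matches, on either strand and with no overlap between motifs in these windows, to the GC box GGGCGG, the TATA box TATAAA, the CCAAT box, the AP-1 motif TGANTCA or the SMAD motif CAGAC.
Fbln1: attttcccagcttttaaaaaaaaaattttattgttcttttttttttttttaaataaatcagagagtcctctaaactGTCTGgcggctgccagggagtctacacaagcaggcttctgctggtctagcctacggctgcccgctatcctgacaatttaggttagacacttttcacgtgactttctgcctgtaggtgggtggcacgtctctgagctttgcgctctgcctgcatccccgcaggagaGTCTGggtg
Fbln5: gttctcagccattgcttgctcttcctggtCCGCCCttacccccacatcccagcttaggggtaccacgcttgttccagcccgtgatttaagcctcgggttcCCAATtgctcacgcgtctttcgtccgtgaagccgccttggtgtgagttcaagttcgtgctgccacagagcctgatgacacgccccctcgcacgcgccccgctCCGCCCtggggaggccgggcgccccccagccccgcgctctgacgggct
Efemp2: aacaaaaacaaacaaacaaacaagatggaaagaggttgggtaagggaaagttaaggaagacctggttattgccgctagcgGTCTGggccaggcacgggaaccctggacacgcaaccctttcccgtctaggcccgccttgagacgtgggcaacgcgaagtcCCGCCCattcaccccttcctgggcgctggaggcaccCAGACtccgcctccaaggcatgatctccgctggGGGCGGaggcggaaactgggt
Efemp1: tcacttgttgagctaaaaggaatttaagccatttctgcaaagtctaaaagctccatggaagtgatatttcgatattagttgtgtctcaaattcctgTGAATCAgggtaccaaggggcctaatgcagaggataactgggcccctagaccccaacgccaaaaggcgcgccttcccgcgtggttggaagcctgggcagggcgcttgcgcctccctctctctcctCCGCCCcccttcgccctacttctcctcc

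The Fbln1 stretch had a GC content of 46.4% and held 2 SMAD matches and no GC box. Those of Fbln5, Efemp2 and Efemp1 had 65.2%, 59.2% and 53.4% GC and held 2, 2 and 1 GC boxes. Fbln5 also had 1 CCAAT box, Efemp2 2 SMAD matches and Efemp1 1 AP-1 match. Over all 32851 windows of 250 bases in the table, 32.7% held a GC box, 12.4% a TATA box, 33.8% a CCAAT box, 6.7% an AP-1 match and 42.2% a SMAD match. The median GC content of these windows was 52.4%. Of the other members held, Fbn1, with a negative fold change, had a GC box in its window. Those of Mfap2, with a negative fold change, and Emilin1, with a positive one, had none. The windows of these members overlap annotated exons. Their RefSeq start sites lie 1555 bases (Fbn1), 6 bases (Mfap2) and 384 bases (Emilin1) past the annotated gene start. A match is a string of letters, and binding was not measured.

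Emilin1 (chromosome 5, 30913402 to 30921277), whose product EMILIN-1 lies at the interface of elastin and microfibrils, had the largest fold change of the members. It stood at 428, 242, 270.1 and 196 CPM in PDGFRα- libraries 1 to 4 and 513, 485, 405 and 322 CPM in PDGFRα+ libraries 1 to 4. PDGFRα- library 1 lay among the PDGFRα+ libraries, the other 3 below all of them, and each PDGFRα+ library exceeded the PDGFRα- library of the same number. The mean went from 284 ± 101 to 431 ± 86.1 CPM (SD, n = 4), 1.52-fold, with a log2 fold change of 0.60 ± 0.23 (SE, edgeR adjusted p = 0.515).

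The groups of 4 libraries overlapped for each of the 10 members, while for 5.05% of all tested genes they did not, including 2.69% with the PDGFRα+ libraries higher. Taking group alone as the term, 0 of the 10 members passed an adjusted p of 0.05, where 0.243% of all 15643 tested genes did, 0.192% higher and 0.0511% lower. All members passed the filter on low counts. Before adjustment 3 members, Fbln5, Efemp2 and Emilin1, had a p below 0.05, as did 6.95% of all tested genes. So did 396 of the 3246 genes at least as abundant as the lowest member. DESeq2 and limma-voom called 0 members. The median log2 fold change of the members was 0.10 against -0.01 over all tested genes. The deposited comparison matched a model that holds the replicate number. Over 29254 genes, a DESeq2 fit with number and group gave the dispersions of the authors' table to within 8.7e-04%, and a fit on group without number missed them by up to 7500%. Fold changes of the number and group fit lay within 0.01 of the deposited log2 values for 29253 of those genes, and the 1 other gene differed by 1.5. Whether the number pairs libraries by mouse or by day is not stated, so the blocked fit, with number as a term, stands beside the unpaired one. With that block, Emilin1 was called higher (log2 fold change 0.64 ± 0.13 SE, edgeR adjusted p = 0.0134) and was the 1 member called, where 2.27% of tested genes were, 1.34% higher and 0.933% lower. Among the 3246 genes at least as abundant as the lowest member, 7.02% were called. The call on Emilin1 was lost without number 3 (adjusted p = 0.114) and without number 4 (0.0542). Blocked log2 fold changes of Fbln5, Efemp2 and Efemp1 were 0.47 ± 0.13, 0.53 ± 0.16 and 0.40 ± 0.13 (SE, edgeR adjusted p = 0.0798, 0.127 and 0.14). Fbln1, at -0.25 ± 0.11, had an edgeR adjusted p of 0.397 with the block, and the other 5 members lay between 0.636 and 0.908. By the same threshold, 2 members pass in the authors' deposited table, Emilin1 with a log2 fold change of 0.629 (adjusted p = 1.6e-04) and Fbln5 with 0.453 (adjusted p = 0.0303), where 4.82% of the genes with an adjusted p do and 2.3% are higher in PDGFRα+ libraries.

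**Figure D2:**
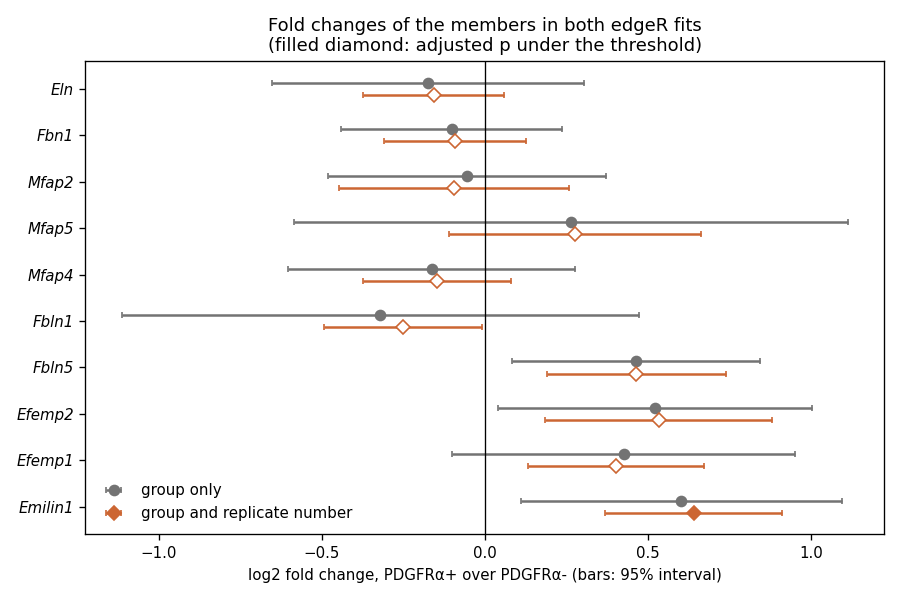
Log2 fold change of each member, PDGFRα+ over PDGFRα-, with its 95% interval from edgeR, for the fit with group alone (grey circles) and the fit with group and replicate number (orange diamonds, filled where the adjusted p is under 0.05). Emilin1 is the 1 filled diamond, at 0.64, and the intervals of the blocked fit are narrower for each of the 10 members.

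In 4 of 4 same-numbered pairs, 4 members (Fbln5, Efemp2, Efemp1 and Emilin1) had the higher value on the PDGFRα+ side, as did 10.3% of all tested genes. Emilin1 differed by 0.26, 1.00, 0.59 and 0.72 on the log2 scale in pairs 1 to 4, and Fbln5 by 0.29, 0.69, 0.70 and 0.18. Eln and Mfap4 were lower in 4 of 4 pairs, as were 10.2% of tested genes. The differences for Eln were small, at -0.35, -0.18, -0.08 and -0.02, and those for Mfap4 ran from -0.39 to -0.02. Fbn1 and Fbln1 were lower in 3 of the pairs and higher in pair 4, by 0.13 and 0.12.

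Within a library, the reads of Emilin1 were set against those of Eln, as reads per 100 reads of Eln. This ratio, picked after the values were seen and not tested, was 13.8, 7.81, 10.1 and 12.2 reads in PDGFRα- libraries 1 to 4. It was 21.2, 17.7, 16.0 and 20.2 reads in the PDGFRα+ libraries, in the same order. The groups did not overlap, as was so for 3.51% of all tested genes when set against Eln, 2.81% with the PDGFRα+ libraries higher. The choice favoured this, since Emilin1 had the largest fold change of the members and Eln was lower in each same-numbered pair. The corresponding ratio for Fbln5 ran from 4.03 to 8.92 and from 6.92 to 10.2 and overlapped. Reads of Eln per 100 reads of Fbn1 were similar across the fractions, from 67.0 to 95.7 in PDGFRα- and from 60.4 to 102 in PDGFRα+ libraries, with number 4 lowest on both sides. The ratios of Mfap4 to Fbn1, Fbln1 to Fbn1 and Efemp1 to Efemp2 overlapped as well. The ratio of the MAGP genes overlapped widely between the fractions. Reads of Mfap5 per 100 reads of Mfap2 were 50.2, 103, 95.3 and 41.2 for PDGFRα- libraries 1 to 4. They were 48.9, 186, 116 and 54.4 for the PDGFRα+ libraries in that order, low in libraries 1 and 4 of either fraction.

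Several members varied with the replicate number. Whether the pattern was the same in both fractions was not tested. An edgeR test of the number, with group as a term, passed an adjusted p of 0.05 for 6 of 10, where 4.28% of all tested genes passed and 12.1% of the 3246 genes at least as abundant as the lowest member. This test was chosen after the values were seen. The 6 were Fbln1 (adjusted p = 4.2e-04), Eln (0.00724), Mfap5 (0.0124), Efemp1 (0.0147), Mfap4 (0.031) and Emilin1 (0.0355). For Fbln1 the mean of both fractions was 2459.7 CPM in number 1 and 896 CPM in number 4, 2.74-fold apart, while the fractions differed 1.25-fold. Mfap5 ran from 35.2 CPM in number 1 to 88.7 CPM in number 2, 2.52-fold. Efemp1 ran from 97.4 CPM in number 4 to 185 CPM in number 2, 1.90-fold, and Eln from 1602 CPM in number 4 to 2922 CPM in number 2, 1.82-fold. Fbn1, at 1.30-fold between the highest and lowest number (edgeR adjusted p = 0.446), varied least. The count of 6 rested in part on single numbers. Leaving out number 4 left 1 member, Mfap5, and 1.56% of all tested genes, and leaving out number 1 left 3, Eln, Fbln1 and Mfap4, and 2.01% of all. The share over all genes thus fell as well.

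**Figure D3:**
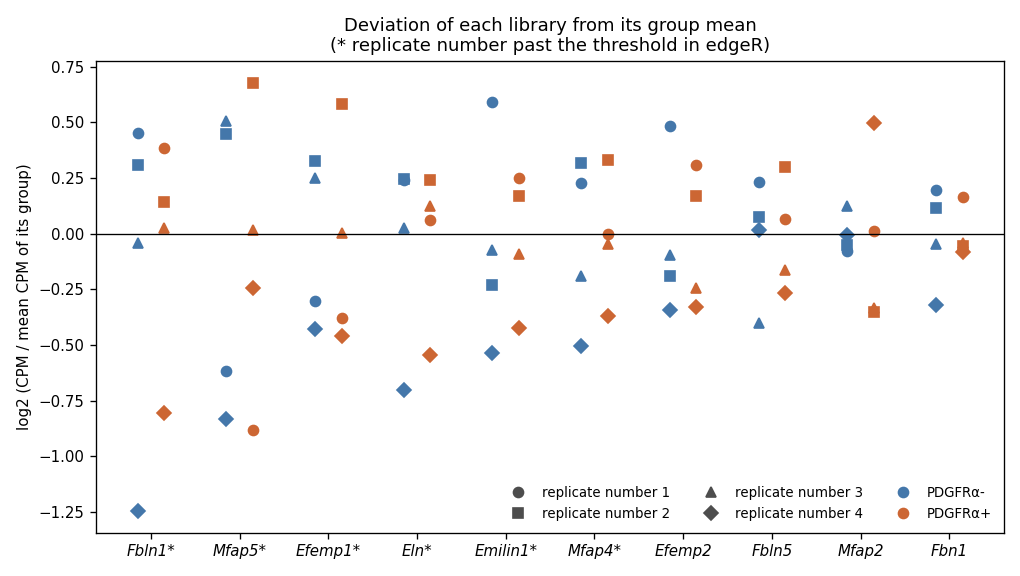
Deviation of each library from the mean of its own group, as log2 of the CPM over the group mean, for PDGFRα- (blue) and PDGFRα+ (orange) libraries with a symbol for each replicate number. Members are ordered by the fold between the highest and lowest number, from Fbln1 at 2.74 to Fbn1 at 1.30, and the asterisk marks the 6 genes past an edgeR adjusted p of 0.05 for the number. For Fbln1, Eln, Mfap4, Fbn1, Emilin1, Efemp1 and Efemp2 both diamonds (number 4) lie lowest in their group.

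Markers of other cells also varied with the number. The 8 smooth muscle genes summed to 364 and 463 CPM in the libraries of number 1, the lowest of each fraction, and to at least 992 CPM in the other 6. The 8 genes of adventitial fibroblasts and trophocytes, most of whose counts came from Dcn, summed to 9577, 8189, 7158 and 5346 CPM in PDGFRα- libraries 1 to 4 and to 6573, 5509.7, 5447 and 4529 CPM in PDGFRα+ libraries 1 to 4. Number 4 was the lowest of each fraction there too, as for Fbln1, Eln, Mfap4, Fbn1, Emilin1, Efemp1 and Efemp2. PDGFRα- library 4 also had the highest endothelial sum, 623 CPM, against 60.7 to 168 CPM in the other 7 libraries. The part of these markers in the members' values was not tested.

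Outside the members, 3 listed elastic fibre genes were called with group alone, Hmcn1, Vcan and Fn1. Median log2 fold changes of the tested genes, again against -0.01 over all genes, were 0.13 for family relatives, 0.23 for assembly and crosslinking, 0.14 for receptors and -0.07 for elastin breakdown. In the list of family relatives, 1 of 11 tested genes was called higher with group alone and 2 with the block. Of all tested genes 0.192% and 1.34% were. Hmcn1 (chromosome 1, 150562524 to 150993435) encodes hemicentin-1, a very large extracellular protein of the fibulin family. It stood at 241, 211, 250.4 and 280 CPM in PDGFRα- libraries 1 to 4 and 764, 729.9, 669.7 and 503 CPM in PDGFRα+ libraries 1 to 4, so that the groups were far apart. Expression rose 2.72-fold (edgeR adjusted p = 0.00253, log2 fold change 1.44 ± 0.17 SE). An exon overlaps Gm20631 on the other strand. Fbln2, the fibulin-2 gene, was called with the block (log2 fold change 0.58 ± 0.13 SE, edgeR adjusted p = 0.0267) and not without it (0.869), and the call was lost without number 2, 3 or 4 (up to 0.219). Hmcn2, the most abundant relative per kilobase, stood at 3547 ± 165 and 3885 ± 385 CPM and was not called in either fit. Fbn2, which encodes fibrillin-2, averaged 8.90 CPM per kilobase over the 8 libraries, against 239 for Fbn1, and was not called (edgeR adjusted p = 0.988).

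Of 20 assembly and crosslinking genes, 2 were called higher with group alone and 4 higher and 1 lower with the block. Over all tested genes the matching shares were 0.192%, 1.34% and 0.933%. Vcan (chromosome 13, 89655312 to 89742509), the gene of versican, a large proteoglycan that binds fibrillin microfibrils and hyaluronan, had 258, 185, 204 and 172 CPM in PDGFRα- libraries 1 to 4. In PDGFRα+ libraries 1 to 4 it had 700.4, 661, 626 and 483 CPM, all above the highest PDGFRα- library. The gene rose 3.02-fold (edgeR adjusted p = 0.00189, log2 fold change 1.59 ± 0.18 SE). Fn1, the fibronectin gene, whose fibrils guide microfibril assembly, was 2.04-fold higher (edgeR adjusted p = 0.0461), a call lost in 6 of the 8 fits that leave out 1 library, with adjusted p from 0.0607 to 0.186, and with a filter at a mean CPM of 1 (0.0561). Exons of Fn1 overlap Apol7d, and those of Lox AC161119.1, on the other strand. Ltbp1, which encodes a latent TGF beta binding protein, and Adamtsl2, whose product binds fibrillin-1, were called higher with the block alone (log2 fold changes 0.48 ± 0.10 and 0.67 ± 0.15 SE, edgeR adjusted p = 0.0234 and 0.0309). The call on Ltbp1 was lost without number 1, 3 or 4 (adjusted p up to 0.17), and that on Adamtsl2 without number 1, 2 or 3 (up to 0.169). Lox, which encodes lysyl oxidase, a crosslinker of elastin and collagen, had 659, 538, 572 and 667 CPM in PDGFRα- libraries 1 to 4 and 409.6, 295, 400.5 and 532 CPM in PDGFRα+ libraries 1 to 4. Each PDGFRα+ library lay below every PDGFRα- library. It was the 1 gene of the list called lower with the block (log2 fold change -0.60 ± 0.12 SE, edgeR adjusted p = 0.0116) and was not called without it (0.358), nor with the block when number 1 (0.0668) or number 3 (0.0966) was left out. Its relative Loxl1, which is required for elastic fibre upkeep in mice, stood at 486 ± 98.4 and 484 ± 67.8 CPM. Dcn, the decorin gene and the most abundant of this list per kilobase, was not called in either fit. Its edgeR adjusted p was 0.777 with group alone and 0.0829 with the block. DESeq2 with the block did call Dcn and Bgn. In the authors' deposited table Dcn is lower in PDGFRα+ libraries (log2 fold change -0.374, adjusted p = 0.0074) and Bgn higher (0.387, adjusted p = 0.0106).

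Receptors and breakdown enzymes were listed as well. Of 11 receptor genes 0 were called with group alone (edgeR), where 0.243% of all tested genes were. Before adjustment 3 were below 0.05, beside 6.95% of all. DESeq2 called Itgb3 and Itgb8 and limma-voom 0. With the block 2 were called higher (edgeR), beside 1.34% of all tested genes. Itgb3, the integrin β3 subunit gene, whose dimer with αv binds fibrillin-1 and fibronectin, stood at 51.4 ± 11.8 and 127 ± 49.5 CPM (blocked log2 fold change 1.26 ± 0.17 SE, edgeR adjusted p = 7.0e-04). Itgb8, whose product with αv activates latent TGF beta, stood at 7.94 ± 2.81 and 24.7 ± 10.5 CPM (edgeR adjusted p = 0.0371 at a blocked log2 fold change of 1.57 ± 0.37 SE). The blocked call on Itgb3 held without any 1 number (adjusted p up to 0.0203), while that on Itgb8 was lost without number 2, 3 or 4 (up to 0.221). The αv gene Itgav itself was at 136 ± 6.30 and 160 ± 20.4 CPM, and Itgb1, the most abundant receptor gene per kilobase, at 614 ± 37.4 and 766 ± 56.1 CPM, neither called. In the list of elastin breakdown, 9 of 12 genes could be tested and 0 were called in either fit (edgeR). Without the block 2 were below 0.05 before adjustment, beside 6.95% of all tested genes, and DESeq2 and limma-voom also called 0. Other settings did call genes of this list, namely Ctsl and Mmp9 by DESeq2 with the block, Mmp7 and Mmp9 with no filter, and Mmp9 in the blocked fit without number 2. In the authors' deposited table Mmp9 (adjusted p = 0.0324) and Ctsl (0.0221) are both lower in PDGFRα+ libraries. Mmp9 had 510 counts in PDGFRα- library 4 and 0 to 66 in each other library. Mmp7 had 457 counts in PDGFRα- library 2 and 0 to 71 in each other library. Ctsl stood at 704 ± 83.3 and 540 ± 35.1 CPM, and its groups did not overlap. These genes were named after their values were seen. Mmp2, the gelatinase gene and the most abundant of that list per kilobase, stood at 966 ± 71.0 and 1109 ± 182 CPM. The untested genes were Mmp7, Mmp12 and Elane.

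**Figure D4:**
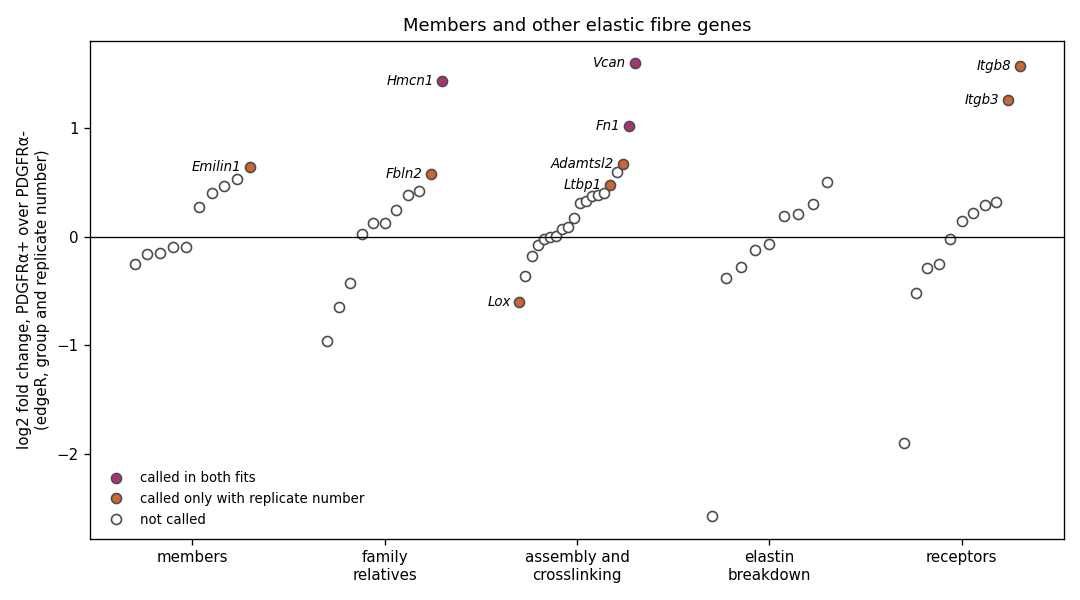
Log2 fold change, PDGFRα+ over PDGFRα-, from the edgeR fit with group and replicate number, for the 10 members and for tested genes of the 4 other elastic fibre lists, each circle a gene. Purple circles were called in both fits (Hmcn1, Vcan and Fn1), orange ones with the replicate number alone, and open ones in neither fit. The members span -0.25 to 0.64, while Vcan reaches 1.60 and Itgb8 1.57.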

How the data were processed

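FACS-sorted cells went into lysis buffer, and a low-input stranded kit was used for the libraries, per the labels' protocols. The submitters' processing notes name cutadapt 3.4, STAR 2.7.3a, featureCounts 2.0.1, DESeq2 and the build GRCm38 (mm10). No parameter, strand setting or annotation release was found in these sources. Raw read counts per gene and library stand in 1 table that the authors deposited. It also holds the authors' score (size-factor-scaled, rounded counts) with its means, their ratio (fold change), log2 fold change, p-value and adjusted p-value, and a dispersion score from the authors' model. Molecular identifiers are not mentioned, so amplified reads may not be independent molecules.

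All genes were fitted together by edgeR 4.0.16 under R 4.3.3 (robust quasi-likelihood F test on counts, with TMM and filterByExpr, 15643 of 53801 genes kept), with Benjamini-Hochberg adjustment and a threshold of 0.05. DESeq2 1.42.0, limma 3.58.1, other filters, another scaling, left-out libraries and a replicate block were alternatives. The test of the replicate number was chosen after seeing the data. CPM per kilobase used the union of exons in GENCODE M21 (GRCm38). The members, lists and tests were chosen with earlier results of these data known. The text names the 10 members and, of the other lists, each gene past the threshold in the unpaired or blocked fit and the most abundant per kilobase. Genes named beyond this rule (Fbn2, Loxl1, Itgav, Bgn, Mmp9, Ctsl, the sort marker Pdgfra, single cell type markers and the untested genes) were added after their values were seen. Itgam occurred in 2 rows and was not used.

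For numbers 1 to 4, each pair's deviations from its group means had a correlation of 0.231, 0.182, 0.023 and 0.248 over 15643 genes, lowest for number 3.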

Additional observations from a re-analysis of the deposited data

Results flagged for a closer look

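Fbn1 stood at 3135 CPM in PDGFRα+ library 1, while the other 3 PDGFRα+ libraries lay between 2636 and 2716 CPM, a gap of 0.839 of the whole range of the group. It was the 1 value that stood apart in this way among 46 groups of 4 libraries checked over 23 genes, and chance alone marks about 1 group in 20.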

How the results depend on the processing

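Of the members, Mfap2 and Mfap5 alone changed sign under any of the alternatives run. The log2 fold change of Mfap2 was 0.044 with the replicate block and without number 3, 0.046 without PDGFRα+ library 2 and 0.045 without PDGFRα+ library 3, and ran from -0.26 to 0.046 when 1 library was left out. That of Mfap5 was -0.056 without PDGFRα+ library 2, and ran from -0.056 to 0.48. The numbers of all genes, members and other elastic fibre genes called were 38, 0 and 3 with group alone, with 15643 genes tested. On the same 15643 genes they were 207, 0 and 5 with DESeq2, 355, 1 and 9 with the replicate block, and 805, 2 and 13 with DESeq2 and the block. With no filter on low counts, which tested 29254 genes, they were 277, 1 and 7. With the block and another scaling (RLE, added after seeing the data) the counts were 348, 1 and 9, and the share of higher calls was 55.17% against 58.87%. Leaving out 1 library gave 7 to 49 genes, 0 members and 2 to 4 other genes, with 16262 to 16573 genes tested. Leaving out 1 number from the blocked fit gave 196, 281, 99 and 300 genes for numbers 1 to 4, 0 to 1 members and 4 to 7 others. There 15696 to 16243 genes were tested. Members differing by replicate number were 6 beside 4.28% of all tested genes, and 1 to 5 beside 1.56% to 6.05% when 1 number was left out. The cause of these changes was not tested, and fits with left-out libraries also hold fewer samples. Adjusted p of Emilin1 ran from 1.45e-04 to 0.94 over all settings. Besides Emilin1, Fbln5 was called under 1 alternative, DESeq2 with the block (adjusted p = 0.0287). The share of higher calls was 78.95% with group alone, 60.29% with no filter, 62.8% with DESeq2, 58.87% with the block and 47.95% with DESeq2 and the block.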
